A study of Mus musculus with 6 samples.

Results

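Müller glia are the radial glia of the retina, and 10 genes that mark these cells in their resting state were followed across saline- and microbead-injected retina: *Glul*, *Dkk3*, *Crym*, *Apoe*, *Clu*, *Spc25*, *Abca8a*, *Gpr37*, *Slc6a6* and *Cp*. The genes were found by symbol in the deposited table of gene counts, where each matched exactly 1 of the 31169 genes. The rule used no measured value, but the members were chosen with earlier results of these data known. Whole retina was taken from C57BL/6 mice 4 weeks after an intracameral injection (into the front chamber of the eye) of 1 μL. The mice were 1 month old at injection and 2 months old at harvest. The sample records give this volume, and the paper states a larger one. Control mice received saline (3 retinas), and the other mice received microbeads 15 μm in diameter, which raise intraocular pressure (IOP) by obstructing the outflow of aqueous humor (3 retinas). Poly(A) RNA of each retina gave 1 library. The paper describes male mice and reports more retinas per group for its RNA sequencing than the 3 held here. The labels do not say whether the retinas of a group came from separate mice, and the study injected both eyes of each mouse, so the tests measure the spread between these retinas.

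Müller cells span the thickness of the retina and take up the transmitters, ions and water that neurons release. They convert glutamate to glutamine, carry taurine, secrete lipoprotein particles and supply metabolites to neurons and photoreceptors. After injury or raised IOP these cells can turn reactive (gliosis), a state known for the induction of *Gfap* and for changes in many of the genes that maintain the resting cell.

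The libraries held 13574949 to 46481382 counts, and by the group medians saline libraries were deeper by a factor of 2.4. At these depths 3 counts correspond to 0.0622 to 0.217 counts per 1000000 (CPM), far below the lowest member value, and the smallest count of any member was 559, that of *Crym* in microbead replicate 3. CPM were scaled by the TMM method of edgeR, which sets a common level over all genes. The share of counts on the mitochondrial genome was 3.19 to 3.57% in saline and 8.9 to 10.6% in microbead libraries. The names of the saline libraries form a series of their own, as do those of the microbead libraries, so a difference between the series and a difference between the injections cannot be told apart. Rod genes, which mark the main cell type of this tissue, summed to between 57300 and 84400 CPM in every library. Markers of Müller glia other than the members were present as well: *Rlbp1*, the retinaldehyde carrier of these cells, lay between 416 and 786 CPM in the 6 retinas (a gene named after its values were seen).

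Of the 10 Müller glia genes, 2 fell after microbead injection (adjusted p under 0.05 in edgeR's quasi-likelihood test) and 0 rose, against 12.8% of the 17707 tested genes that passed in either direction, 6.31% that passed as lower and 6.46% that passed as higher. An unadjusted p-value under 0.05 was reached by 3 members, *Gpr37* being the third, and by 31.4% of the tested genes. The 2 genes were *Dkk3*, a secreted glycoprotein of the Dickkopf family, and *Crym* (μ-crystallin), a thyroid hormone-binding protein. All 10 members were tested, and all 10 had a log2 fold change below 0, as did 52.1% of the tested genes. Their median log2 fold change was -0.37, and the median of all tested genes was -0.031. Between the groups, 3 members did not overlap, *Dkk3*, *Crym* and *Slc6a6*, each lower after microbead injection, as was the case for 18.9% of the tested genes. Where a member was lower in whole retina, fewer Müller cells, less RNA per cell and changes in other cells cannot be told apart. Leaving out a library changed how many members passed, to 3 without saline replicate 1, to 1 (*Crym*) without saline replicate 2 and to 0 without any one of the 3 microbead libraries.

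**Figure D1:**
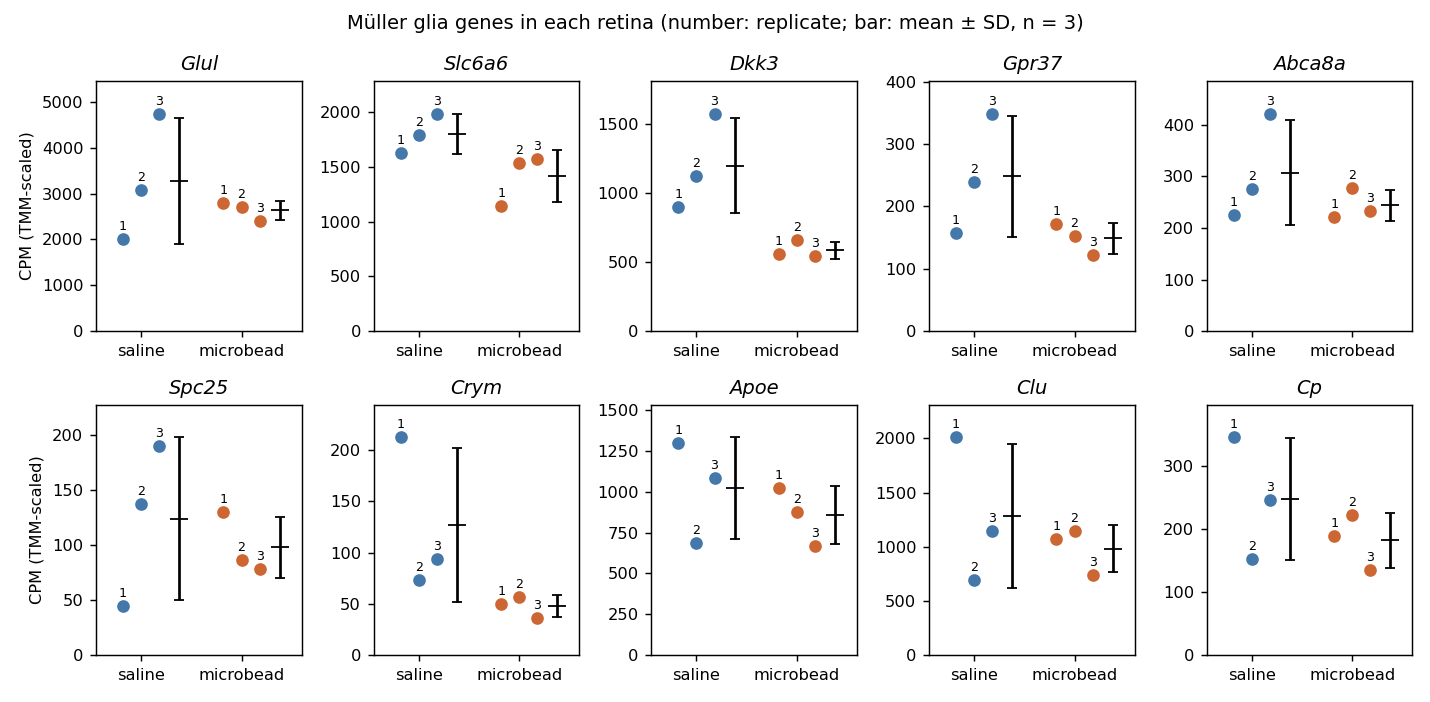
CPM (TMM-scaled, linear axis from 0) of the 10 Müller glia genes in each of the 3 saline and 3 microbead retinas, with the replicate number above each point and the mean ± SD beside each group. Saline replicate 1 is the lowest saline point of the first 6 panels and the highest of the last 4, and in every panel but that of *Slc6a6* the ratio of the highest to the lowest retina is larger in saline than in microbead retinas.

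*Dkk3* (chr7:112116017-112159057 in GRCm38, reverse strand) is a gene of 8 exons. It was measured at 899, 1118 and 1572 CPM in saline replicates 1, 2 and 3 and at 556, 657 and 541 CPM in microbead replicates 1, 2 and 3. Every saline retina was above every microbead retina. Means were 1196 ± 343 CPM and 585 ± 63.0 CPM (SD, n = 3 each). *Dkk3* fell by 51.1%, with a log2 fold change of -1.03 and a standard error of 0.23 (edgeR, adjusted p = 0.0242). Over the 6 fits that each left out a library, its log2 fold change ran from -1.21 to -0.79, and the adjusted p-value (edgeR) was 0.0681 without saline replicate 2 and 0.0737, 0.0616 and 0.113 without microbead replicates 1, 2 and 3. It was 0.0124 without saline replicate 1.

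*Crym* (chr7:120186380-120202111, also on the reverse strand) has 8 exons in its main transcript. Its levels were 213, 73.5 and 94.2 CPM in saline replicates 1, 2 and 3 and 49.9, 56.9 and 36.3 CPM in the microbead replicates. Saline replicate 1 stood far above every other retina, and the groups did not overlap. The means were 127 ± 75.0 CPM and 47.7 ± 10.5 CPM (SD, n = 3 each), and *Crym* fell by 62.4%, with a log2 fold change of -1.41 and a standard error of 0.37 (edgeR, adjusted p = 0.0387). Without saline replicate 1 the log2 fold change of *Crym* was -0.82 (adjusted p = 0.0428 from edgeR), a smaller difference on the same side of the threshold. Without microbead replicates 1, 2 and 3 in turn, its adjusted p-value was 0.102, 0.0840 and 0.156 (edgeR), and limma-voom on all 6 libraries gave 0.0536.

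*Glul* encodes glutamine synthetase, which turns the glutamate taken up from synapses into glutamine. The gene lies at chr1:153899944-153909723 (forward strand) and had the highest mean level of the members in both groups. By library, *Glul* was at 2003, 3066 and 4739 CPM in saline replicates 1 to 3 and at 2802, 2706 and 2396 CPM in microbead replicates 1 to 3. The microbead values lay inside the saline range, between replicates 1 and 2. Its log2 fold change of -0.31 (95% interval -0.95 to 0.33, adjusted p = 0.491 from edgeR) did not pass the threshold, with -0.57 once saline replicate 1 was left out (adjusted p = 0.118) and 0.054 once saline replicate 3 was (adjusted p = 0.904).

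*Slc6a6* (chr6:91684053-91759066, forward strand), the taurine transporter, was the most even member among saline retinas, with a highest value 1.22 times the lowest. It was at 1624, 1790 and 1987 CPM in saline and at 1141, 1534 and 1570 CPM in microbead replicates 1 to 3. The groups did not overlap, with microbead replicate 3 just under saline replicate 1. The log2 fold change was -0.35 (95% interval -0.78 to 0.09, adjusted p = 0.252 from edgeR). *Abca8a* (chr11:110025634-110095978, reverse strand), a lipid-transporting ABC protein of 39 exons, was at 224, 275 and 421 CPM in saline and at 221, 278 and 233 CPM in microbead retinas. Saline replicate 3 stood above a cluster of the other 5 retinas, and the log2 fold change of -0.33 (95% interval -0.87 to 0.21, adjusted p = 0.376 from edgeR) became -0.038 without that retina, the weakest value among the fits that left out a library.

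*Gpr37* (chr6:25665878-25690729, reverse strand), a G protein-coupled receptor for which prosaposin has been described as a ligand, was at 157, 238 and 349 CPM in saline replicates 1 to 3 and at 172, 153 and 122 CPM in microbead replicates 1 to 3. Saline replicate 1 lay among the microbead retinas and the other saline retinas above them. Its log2 fold change of -0.74 had a standard error of 0.28 and did not pass (edgeR, adjusted p = 0.105). Without saline replicate 1 it was -0.98 and past the threshold (adjusted p = 0.0248 from edgeR), whereas without saline replicate 3 it was -0.41 (adjusted p = 0.290). Requiring no minimum count also moved *Gpr37* past the threshold (adjusted p = 0.0112).

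*Spc25* (chr2:69193895-69206194, reverse strand), named for its role in the Ndc80 kinetochore complex and used as a marker of Müller glia in the mouse retina, varied most among the saline retinas. It was at 44.2, 137 and 190 CPM in saline replicates 1 to 3, a span of 4.3 times, and at 129, 86.4 and 77.8 CPM in microbead replicates 1 to 3. Saline replicate 1 was the lowest of the 6 retinas and saline replicates 2 and 3 were the highest. The log2 fold change was -0.34 (95% interval -1.31 to 0.64, adjusted p = 0.634 from edgeR), and it ranged from -0.74 without saline replicate 1 (adjusted p = 0.0777) to 0.11 without saline replicate 3 (adjusted p = 0.887).

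The remaining members encode secreted carriers. *Apoe* (chr7:19696109-19699188, reverse strand), the main apolipoprotein of glia, was at 1299, 685 and 1085 CPM in saline replicates 1 to 3 and at 1022, 876 and 669 CPM in microbead replicates 1 to 3. For *Clu* (chr14:65968483-65981547, forward strand; clusterin, an extracellular chaperone and apolipoprotein), the saline values were 2010, 693 and 1148 CPM and the microbead values 1069, 1143 and 736 CPM. *Cp* (chr3:19957054-20009145, forward strand; ceruloplasmin, a copper-carrying ferroxidase) was at 345, 153 and 245 CPM in saline and at 189, 222 and 135 CPM in microbead retinas. In all 3 genes saline replicate 1 was the highest of the 6 retinas, and saline replicate 2 lay within or under the microbead range. The log2 fold changes were -0.26 for *Apoe* (95% interval -0.84 to 0.33), -0.39 for *Clu* (-1.17 to 0.40) and -0.45 for *Cp* (-1.11 to 0.22), with adjusted p-values of 0.536, 0.486 and 0.333 (edgeR). Without saline replicate 1 they were -0.051, 0.092 and -0.13 (adjusted p = 0.916, 0.850 and 0.772).

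**Figure D2:**
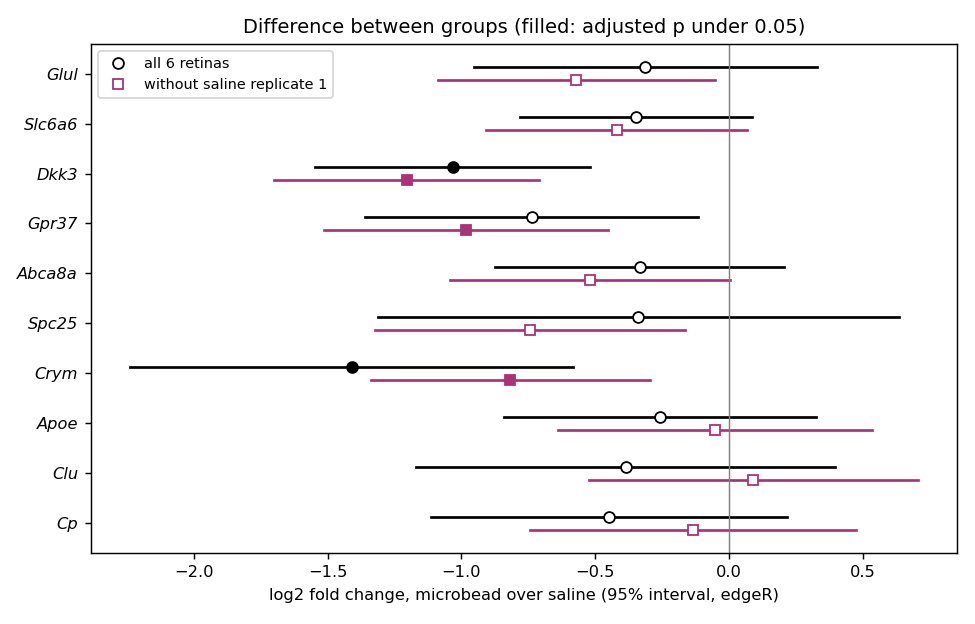
Log2 fold change of each Müller glia gene, microbead over saline, with its 95% interval from edgeR, fitted on all 6 retinas (circles) and without saline replicate 1 (squares); filled symbols have an adjusted p-value under 0.05. *Dkk3* and *Crym* are filled in both fits, *Gpr37* only without saline replicate 1, and *Clu* moves from -0.39 to 0.092.

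Levels can be compared roughly between genes once CPM are divided by the kilobases of annotated exon. This length joins the exons of all annotated transcripts and can exceed that of the RNA present, which understates genes with many transcripts. It joined 16 transcripts for *Cp* and 11 for *Apoe*, and *Dkk3* had 1. On this scale *Glul* led with 984 ± 415 CPM per kilobase in saline and 793 ± 63.9 in microbead retinas (SD, n = 3 each, here and for the next values). *Apoe* followed with 478 ± 146 and 400 ± 83.0, *Clu* with 373 ± 195 and 286 ± 63.1, and *Dkk3* with 356 ± 102 and 174 ± 18.7 CPM per kilobase. Neighbours among *Apoe*, *Clu* and *Dkk3* differed by less than their SD in saline, and in saline replicate 1 *Apoe* (607.4) and *Glul* (602.8) were level. *Slc6a6* was at 213 ± 21.5 and 167 ± 28.1 CPM per kilobase. A lower tier of *Abca8a* (49.0 ± 16.3 and 38.9 ± 4.78), *Gpr37* (40.9 ± 15.9 and 24.5 ± 4.17), *Spc25* (38.8 ± 23.2 and 30.7 ± 8.68), *Crym* (37.4 ± 22.1 and 14.1 ± 3.09) and *Cp* (25.9 ± 10.1 and 19.0 ± 4.58) came after it. In saline, neighbours in the order from *Abca8a* to *Crym* differed by less than their SD, and *Cp* was below *Crym* by more than the SD of *Cp* but less than that of *Crym*. In microbead retinas *Crym* was the lowest mean of the 10.

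The saline retinas differed more among themselves than the microbead retinas in 9 of the 10 members by the ratio of the highest to the lowest retina (1.75 to 4.30 in saline and 1.17 to 1.66 in microbead retinas), *Slc6a6* being the exception with 1.22 and 1.38. The share of all tested genes with a larger ratio in saline was not counted. Over all tested genes, the median absolute log2 difference from the other retinas of the group was 0.276, 0.168 and 0.301 in saline replicates. In microbead replicates it was 0.322, 0.268 and 0.242 (replicates 1 to 3 in each group). Saline replicate 1 divided the members into a set of 4, *Crym*, *Clu*, *Cp* and *Apoe*, in which it was the highest of the 6 retinas (as in 16.4% of the tested genes, while 41.8% were higher in it than in both other saline retinas), and a set of 6, *Spc25*, *Glul*, *Gpr37*, *Abca8a*, *Dkk3* and *Slc6a6*, in which it was the lowest saline retina (as in 32.8% of the tested genes). Its log2 difference from the mean of saline replicates 2 and 3 ran from 1.35 for *Crym* and 1.17 for *Clu* to -0.93 for *Glul* and -1.87 for *Spc25*. In all 6 genes of the second set, the highest of the 6 retinas was saline replicate 3. Over all tested genes, saline replicate 3 departed from its group at least as often as saline replicate 1. In these retinas, 7.82% and 7.11% of genes lay more than 2-fold from the mean of the other 2 saline retinas. This share was 1.54% in saline replicate 2 and 6.15, 3.8 and 2.03% in microbead replicates 1 to 3. Of the members, 3 lay that far in saline replicate 1 and 1 in saline replicate 3. Every microbead retina was below both saline replicates 2 and 3 in 6 members (*Glul*, *Dkk3*, *Crym*, *Spc25*, *Gpr37* and *Slc6a6*) and in 26.5% of the tested genes.

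Ratios between members, formed within a library on CPM per kilobase, do not depend on the scaling between libraries. The ratio of *Clu* to *Glul* was 0.970 in saline replicate 1 and 0.219 and 0.234 in saline replicates 2 and 3, and the microbead retinas held 0.369, 0.408 and 0.297. For *Cp* to *Gpr37* the ratio was 1.40 in saline replicate 1, 0.406 and 0.446 in the other saline retinas, and 0.697, 0.918 and 0.703 in microbead retinas. In both ratios the microbead retinas lay between saline replicate 1 and the other saline retinas. That of *Abca8a* to *Glul* was more even, at 0.0594, 0.0476 and 0.0471 in saline and 0.0417, 0.0544 and 0.0515 in microbead retinas. These ratios were chosen after the values were seen and were not tested.

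RefSeq promoters of GRCm38.p6 were matched for 6 of the 10 members, *Glul*, *Spc25*, *Abca8a*, *Gpr37*, *Apoe* and *Cp*. The 250 bases upstream of the start nearest to the annotated gene start were read. For *Gpr37* that start lay 749 bases inside the annotated gene, and for the other matched members at most 41 bases from the gene start. Shown are the promoters of *Glul* and *Spc25*, the members lowest in saline replicate 1 relative to the other saline retinas, and of *Apoe* and *Cp*. For *Apoe* and *Cp* that retina was the highest, by log2 differences of 0.591 and 0.835 from the other saline retinas. *Crym* and *Clu*, with larger differences (1.35 and 1.17), had no matched promoter, nor did *Dkk3* and *Slc6a6*, so both sets are shown in part. Matches to SOX motifs (ACAATG or ACAAAG), the NFI half-site (TTGGCA) and the STAT site (TTCNNNGAA), searched on both strands, are in capitals.
Glul, chr1:153899679-153899928, forward strand: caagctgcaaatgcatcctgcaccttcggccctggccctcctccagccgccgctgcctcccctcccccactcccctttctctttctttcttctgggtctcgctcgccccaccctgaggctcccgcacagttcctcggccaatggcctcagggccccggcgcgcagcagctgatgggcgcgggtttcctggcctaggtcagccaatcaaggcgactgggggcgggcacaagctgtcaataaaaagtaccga
Spc25, chr2:69206214-69206463, reverse strand: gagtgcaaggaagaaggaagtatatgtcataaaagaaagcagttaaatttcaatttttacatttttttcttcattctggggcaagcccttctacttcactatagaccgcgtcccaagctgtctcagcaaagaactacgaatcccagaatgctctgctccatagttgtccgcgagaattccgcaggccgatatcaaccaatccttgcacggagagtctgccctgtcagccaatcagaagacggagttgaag
Apoe, chr7:19699189-19699438, reverse strand: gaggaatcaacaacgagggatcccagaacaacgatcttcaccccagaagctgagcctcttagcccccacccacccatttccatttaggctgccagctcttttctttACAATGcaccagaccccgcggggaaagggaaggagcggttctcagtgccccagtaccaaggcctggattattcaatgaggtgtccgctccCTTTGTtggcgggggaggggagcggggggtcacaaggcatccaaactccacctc
Cp, chr3:19956804-19957053, forward strand: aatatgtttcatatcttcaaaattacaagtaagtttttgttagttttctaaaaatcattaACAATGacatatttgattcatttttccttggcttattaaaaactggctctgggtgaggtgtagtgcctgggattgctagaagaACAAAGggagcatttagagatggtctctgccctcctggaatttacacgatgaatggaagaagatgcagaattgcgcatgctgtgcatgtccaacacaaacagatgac
*Apoe* and *Cp* held 2 SOX matches each, as capitals show, while *Glul*, *Spc25*, *Abca8a* and *Gpr37* held 0. A SOX motif was thus present in 2 of the 6 matched members. Whether it relates to the sets described above was not tested. The NFI half-site was found once among the 6 members, in *Abca8a*, and the STAT site in none. Of the 32851 promoters in the table, 25.2% held a SOX motif, 12.3% the NFI half-site and 7.02% the STAT site. A match describes the letters and not the binding of a factor, and the absence of a match says only that the letters are not in this window.

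Genes known to rise in reactive Müller glia stood highest in the same retina that divided the members. *Serpina3n*, a secreted protease inhibitor, was at 240, 8.48 and 10.4 CPM in saline replicates 1 to 3 and at 29.6, 30.8 and 10.8 CPM in microbead replicates 1 to 3. *Edn2*, an endothelin ligand, was at 128, 17.0 and 5.45 CPM in saline and at 30.4, 30.6 and 32.9 CPM in microbead retinas. Of the 12 gliosis genes, 11 were higher in saline replicate 1 than in both other saline retinas and 10 were highest there of all 6 retinas. Their summed level was 1144, 262 and 510 CPM in saline and 340, 412 and 295 CPM in microbead retinas. *Gfap*, the intermediate filament that defines gliosis, was at 49.9, 27.5 and 37.8 CPM in saline and at 42.9, 55.5 and 44.6 CPM in microbead retinas (log2 fold change 0.31, adjusted p = 0.393 from edgeR). *Serpina3n*, *Edn2* and *Gfap* were named after their values were seen.

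Against saline, 2 of the 12 gliosis genes fell and 0 rose. They were *Socs3* (log2 fold change -3.69, adjusted p = 0.0464), an inhibitor of cytokine signalling, and *Cebpd* (-2.54, adjusted p = 0.0253), a transcription factor of the acute phase response. *Socs3* was at 28.3, 6.70 and 228 CPM in saline and at 6.69, 8.16 and 5.52 CPM in microbead retinas, so that saline replicate 3 stood far above the rest and the groups overlapped. The median log2 fold change of the gliosis genes was -0.69 and turned to 0.38 without saline replicate 1, where 2 of the 12 were past the threshold as lower and 2 as higher. Without any one microbead library, and with limma-voom on all libraries, 0 of the 12 were past the threshold. With the replicate number as a block, or without saline replicate 3, 1 was, while DESeq2 gave 3 and no filter gave 4. The part of gliosis in the members' values was not tested.

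**Figure D3:**
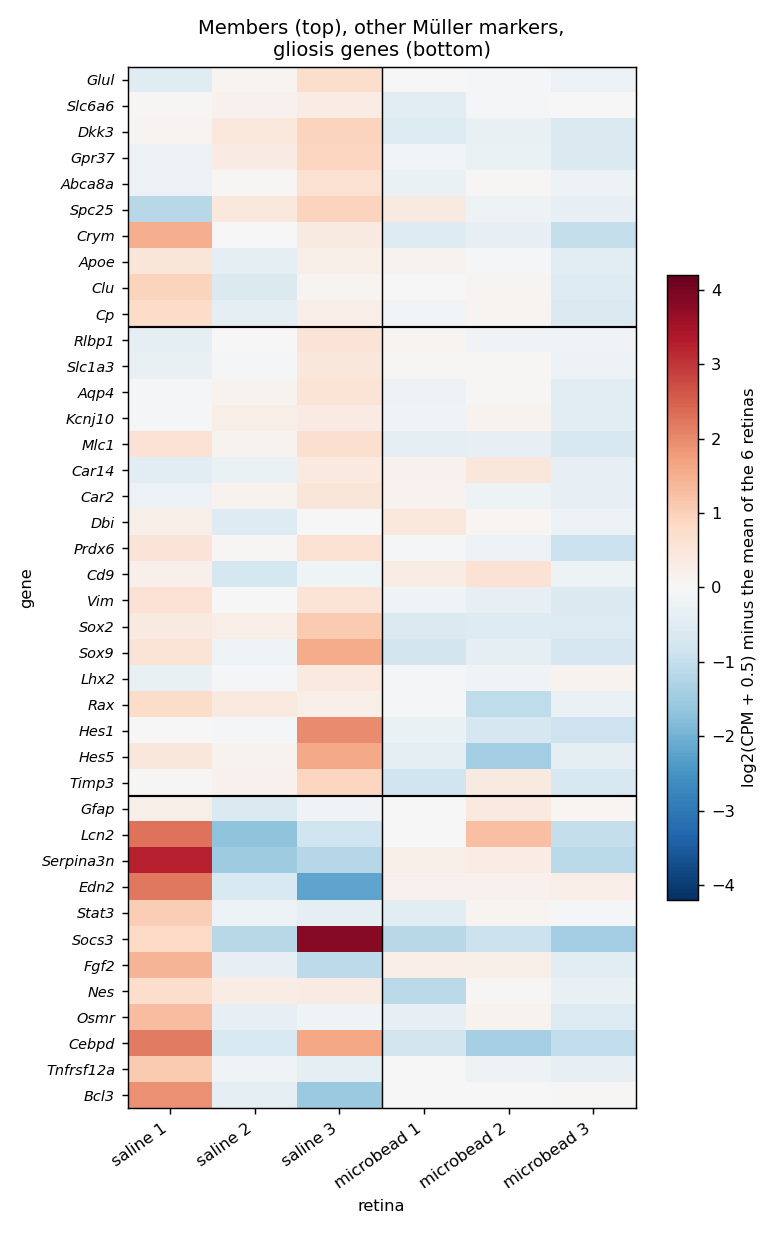
Log2(CPM + 0.5) of each gene in each retina minus its mean over the 6 retinas (red higher, blue lower), for the 10 Müller glia genes (top block), 18 other Müller glia markers (middle) and 12 gliosis genes (bottom). Saline replicate 1 is above both other saline retinas in 11 of 12 gliosis genes and in 4 of the 10 genes of the top block, and *Socs3* is highest in saline replicate 3.

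Among the 18 other Müller glia markers, 6 fell and 0 rose, and 15 had a log2 fold change below 0, with a median of -0.59. Among the 6 genes past the threshold the largest changes were those of the transcription factors *Hes5* (log2 fold change -1.64, adjusted p = 0.0442), a Notch target, *Sox9* (-1.46, adjusted p = 0.0373) and *Sox2* (-1.22, adjusted p = 0.0175), the last pair being factors that maintain the identity of Müller cells. *Sox2* was at 41.3, 38.4 and 68.6 CPM in saline and at 20.6, 21.7 and 21.3 CPM in microbead retinas, without overlap. *Sox9* was at 56.7, 33.3 and 113 CPM in saline and at 22.0, 28.4 and 23.1 CPM in microbead retinas, and its highest value was in saline replicate 3. The other genes past the threshold were *Mlc1*, *Vim* and *Rax*. The 12 genes that did not pass included other transcription factors, *Hes1* (-1.61, adjusted p = 0.0689) and *Lhx2* (-0.051, adjusted p = 0.893), as well as *Rlbp1* (-0.16, adjusted p = 0.679) and the glutamate transporter *Slc1a3* (-0.12, adjusted p = 0.758). *Mlc1*, *Vim*, *Rax* and these 4 genes were named after their values were seen. The 6 calls of this list were 5 without saline replicate 1, 3 without saline replicate 2 or 3, and 0 without any one microbead library.

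Other cell types of the retina also express some members, and their markers were set beside them. Microglia, a further source of *Apoe*, followed the pattern of saline replicate 1: all 10 microglial genes were higher there than in the other saline retinas, and they summed to 260, 84.5 and 123 CPM in saline and to 141, 131 and 63.7 CPM in microbead retinas. The 10 ganglion cell genes were all lower in saline replicate 1 than in the other saline retinas, with sums of 436, 1141 and 1450 CPM in saline and 1339, 993 and 1202 CPM in microbead retinas. In edgeR 0 of them passed the threshold (1 at an unadjusted p-value under 0.05, 0 with DESeq2), and 2 were lower without saline replicate 1. The 10 genes of the pigment epithelium, another source of *Cp*, summed to 10.2, 39.7 and 174 CPM in saline and to 102, 91.5 and 84.6 CPM in microbead retinas. Myelin genes, of interest because oligodendrocytes express *Gpr37* and *Abca8a*, summed to 11.5 to 15.1 CPM in saline and 17.3 to 22.1 CPM in microbead retinas, and of the myelin genes named after their values were seen *Mobp* had at most 3 counts in every library and *Opalin* was at 0 in some. For the 6 genes of the astrocyte list the sums were 53.8 to 94.1 and 67.7 to 80.7 CPM, and their median log2 fold change was 0.51. Of these, 1 passed the threshold, *Aldh1l1*, as lower (-1.23, adjusted p = 0.0307), and it was the only 1 with a log2 fold change below 0. The list held 0 calls with limma-voom, with the replicate number as a block and without any one microbead library. Endothelial genes, which Müller endfeet contact, summed to 471 to 676 CPM in saline and 290 to 444 CPM in microbead retinas, and 4 of 8 fell, with *Tie1* (-1.23), *Esam* (-1.01) and *Cldn5* (-0.94) having the largest changes. With a library left out these 4 calls were 4 without saline replicate 1, 0 to 1 without saline replicates 2 and 3, and 0 to 2 without a microbead library. The part of these cell types in the members' values was not tested.

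**Figure D4:**
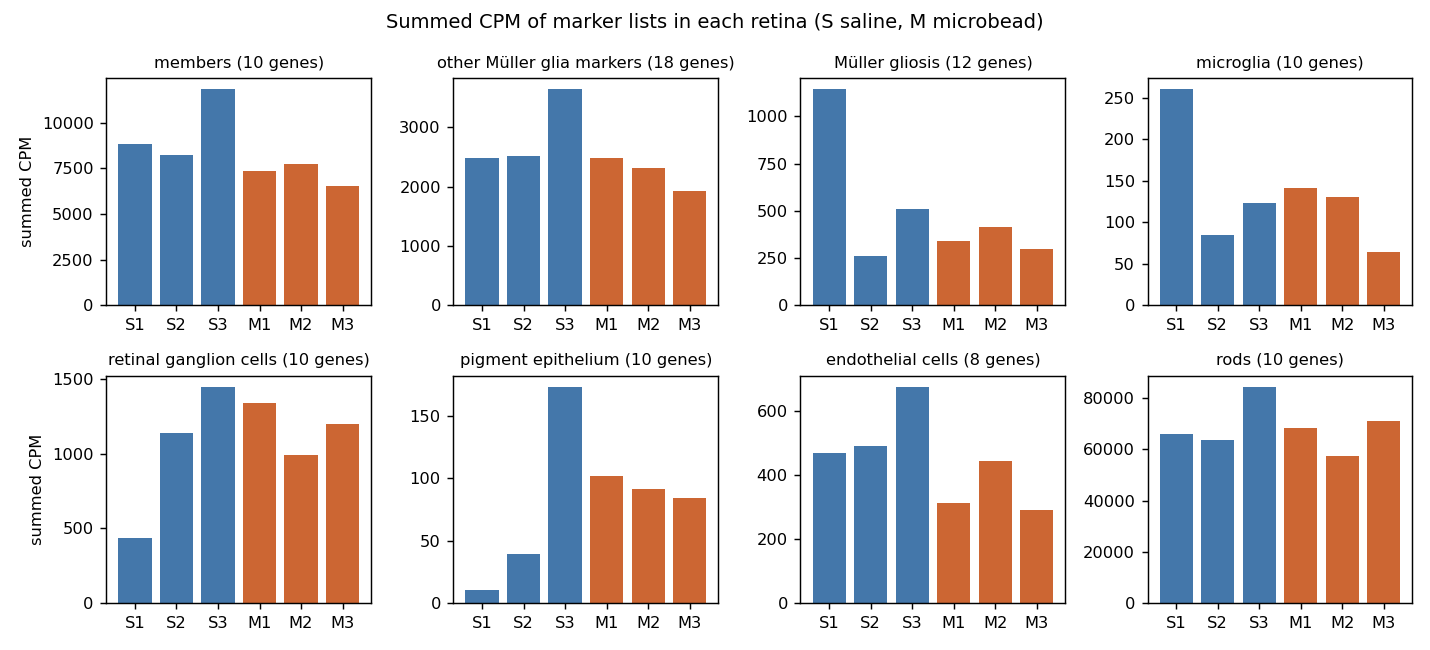
Summed CPM (bars from 0) of the members, of other Müller glia markers and of marker lists of gliosis and of other cell types in saline (S1 to S3) and microbead (M1 to M3) retinas. Saline replicate 1 is the highest bar for gliosis and microglia and the lowest for ganglion cells and pigment epithelium.

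The partners of single members gave further comparisons. *Psap* encodes prosaposin, a precursor of lysosomal activator proteins from which the described ligand of *Gpr37* derives. It was at 893, 912 and 1320 CPM in saline and at 574, 558 and 649 CPM in microbead retinas, without overlap, and fell with a log2 fold change of -0.81 (adjusted p = 0.0341 from edgeR). The related receptor *Gpr37l1* was at 1.34 to 5.29 CPM and did not pass (-1.13, adjusted p = 0.130). This pair of genes held 1 call without saline replicate 1 and 0 without any other library. Of the 4 genes next to *Abca8a* in its subfamily cluster, 0 passed the threshold (1 at an unadjusted p-value under 0.05, 1 with DESeq2 and 1 without saline replicate 1). *Abca8b*, the closest relative, was at 49.0, 51.7 and 59.2 CPM in saline and at 69.5, 60.5 and 60.8 CPM in microbead retinas, higher without overlap but not past the threshold (0.26, adjusted p = 0.317). None of the 100-base stretches of *Abca8a* transcripts occurs in a transcript of another gene, *Abca8b* included.

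Other subunits of the Ndc80 complex lay far below *Spc25*, and in microbead replicate 2 *Spc24* was at the level of 3 counts (0.217 CPM). *Nuf2* lay between 0.566 and 1.62 CPM and *Spc24* between 0.206 and 0.637 CPM in the 6 retinas, against 44.2 to 190 CPM for *Spc25*. *Ndc80* itself and 4 of the other 8 genes of the list did not pass the filter on low counts, and none of the 4 tested genes passed the threshold (0 at an unadjusted p-value under 0.05, 0 with DESeq2).

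Among 11 genes of glutamate and glutamine handling, 2 fell: *Glud1* (-0.91, adjusted p = 0.0174), the mitochondrial glutamate dehydrogenase, and the glutamine carrier *Slc38a2* (-0.66, adjusted p = 0.0302). *Glud1* was at 99.95, 111 and 136 CPM in saline and at 66.3, 57.7 and 60.9 CPM in microbead retinas. Of 9 genes of iron handling, the system in which *Cp* acts, 2 fell: the transferrin receptor *Tfrc* (-0.98, adjusted p = 0.0254), at 121, 144 and 216 CPM in saline and 81.5, 81.2 and 81.3 CPM in microbead retinas, and the ferritin light chain *Ftl1* (-0.78, adjusted p = 0.0276). *Fth1*, the ferritin heavy chain, named after its values were seen, did not pass (0.12, adjusted p = 0.762). With a library left out, the glutamate list held 0 to 3 calls and the iron list 0 to 2, and both had 0 without saline replicate 2, microbead replicate 2 or microbead replicate 3.

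In the taurine list, the counterpart of *Slc6a6*, *Ado* (2-aminoethanethiol dioxygenase) fell (-0.85, adjusted p = 0.0180) and *Cdo1* (cysteine dioxygenase), which supplies the precursor of taurine, rose (0.91, adjusted p = 0.0482), and 6 of the 8 genes did not pass. *Ado* was at 61.3, 61.1 and 61.7 CPM in saline and 39.0, 32.9 and 29.9 CPM in microbead retinas. Of the antagonists of Wnt signalling listed beside *Dkk3*, 1 of 8 tested genes fell, *Kremen1* (-1.06, adjusted p = 0.0478), a receptor for Dickkopf proteins, and it passed in 0 of the 6 fits that left out a library. The taurine list had 0 calls without saline replicate 2, microbead replicate 2 or microbead replicate 3, and 1 call without any other library.

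Receptors and carriers of lipoproteins, the partners of *Apoe* and *Clu*, held 0 calls among 12 genes (4 at an unadjusted p-value under 0.05, 2 calls with DESeq2 and 2 without saline replicate 1). *Vldlr*, a lipoprotein receptor, was at 333, 320 and 291 CPM in saline and at 226, 251 and 200 CPM in microbead retinas (-0.48, adjusted p = 0.0841). Of 9 genes of thyroid hormone handling, listed beside *Crym*, 0 passed (1 at an unadjusted p-value under 0.05, 0 with DESeq2, and 1 without saline replicate 1). The receptor *Thra* was at 244 to 340 CPM in saline and 274 to 346 CPM in microbead retinas.

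Exons of other annotated genes overlapped those of 3 members. *Glul* shares 116 bases of exon with *Teddm2*, *Slc6a6* 117 bases with *Gm44981* and *Cp* 108 bases with *Hps3*, each on the opposite strand, which is 1.13 to 3.49% of the exon length of these members. On the same strand, *Glul* also overlaps the miRNA gene *Mir8114* over 93 bases (2.8% of its exon length). Of the 100-base stretches of member transcripts, 2.3% of *Glul* and at most 0.235% of any other member occur in transcripts of another gene.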

How the data were processed

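The 6 libraries were grouped by the treatment in the sample labels, 3 saline and 3 microbead. The authors aligned 100-base paired-end reads of stranded poly(A) libraries to GRCm38.p5 with STAR 2.5.3a and the GENCODE vM12 annotation, counted reads per gene with featureCounts 1.15.2, and deposited the counts of each gene without normalization. The strand setting and the handling of reads with several matches are not given in the sources used here. The same table holds the authors' DESeq2 results, which were not used: a mean signal (normalized count), a log2 fold change and its linear ratio, a raw and an adjusted p-value, and a mark of the calls. The number of per-sample columns left unused was 0.

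The filter was filterByExpr (a count of 10 and a total of 15 as minimum) and the scaling TMM. Groups were compared in edgeR 4.0.16 (R 4.3.3) by its two-sided quasi-likelihood test, p-values were adjusted by Benjamini-Hochberg over the 17707 genes tested, and the threshold was 0.05. Standard errors are the fold change divided by the square root of F, and intervals are at 95%. CPM per kilobase use the union of exons in GENCODE vM21, to which all 10 members were matched. Within a group the lowest chi-square per degree of freedom between libraries was 20.1, and no library duplicated another. The steps were tested on simulated data.

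Members and gene lists were chosen with earlier results of these data known. From each list the text names at most 3 genes past the threshold with the largest change and a mean of at least 1 CPM, or, where none passed, the 2 most abundant; every gene of the Abca, Ndc80 and Gpr37 partner lists could be named, and other names are marked as chosen later. Alternatives were DESeq2 1.42.0 and limma-voom (limma 3.58.1) as tests, scaling by upper quartile, by RLE or on totals without the 100 most abundant genes, no mitochondrial genes, a filter of 10 counts in each library or none, the replicate number as a block, thresholds of 0.01 or of 0.05 with a fold change over 2, and each library left out in turn.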

Additional observations from a re-analysis of the deposited data

How the results depend on the processing

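Of the 150 log2 fold changes of single members under another setting, 135 kept their direction and side of the threshold, 10 lost the threshold, 2 gained it and 3 changed sign. The sign changes came from leaving out 1 saline library: the range over the 6 such fits was -0.57 to 0.054 for *Glul*, -0.74 to 0.11 for *Spc25* and -0.69 to 0.092 for *Clu*. Scaling by upper quartile, by RLE or on totals without the 100 most abundant genes, leaving out mitochondrial genes, a minimum of 10 counts per library, DESeq2 and the added fold limit each gave 2 members past the threshold, no filter gave 3, limma-voom gave 1 and a threshold of 0.01 gave 0. With each library left out, 0 to 3 members passed. Without microbead replicates 1, 2 and 3, where 0 passed, 3, 2 and 2 members had an unadjusted p-value under 0.05. The median log2 fold change of the members stayed between -0.58 and -0.30 throughout. Over all genes, 2261 passed, with 3720 under no filter, 3582 with DESeq2, and 46 to 2621 with each library left out; 46 was the count without microbead replicate 3. With the replicate number as a block, 905 genes and 0 members passed (2 members at an unadjusted p-value under 0.05). Deviations of libraries with the same number correlated at -0.022, 0.17 and 0.0065 across genes, and 1 of 3 saline libraries correlated best with its own number, so the numbers were not taken to pair the retinas. The cause of these changes was not tested. Each group held only 3 retinas, and the parts of depth and of spread between retinas in the precision of the members' values were not tested.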
